A study of Homo sapiens with 6 samples.

Results

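The 34 genes described here encode the proteins that mark, license and fire replication origins and that travel with the new forks. They were taken from a list of gene symbols and cover the origin recognition complex (ORC), the MCM helicase and its loaders, the CDC45 and GINS helicase cofactors, the CDC7 kinase, further firing factors and fork proteins. All 34 were present among the 27009 named genes of the series, and all 34 passed the filter on low values. Expression was measured by RNA-seq in UWB1.289, an established human ovarian carcinoma line without functional BRCA1. The 3 shHBO1 libraries came from cells transduced with a lentiviral short hairpin RNA against HBO1, the histone acetyltransferase encoded by KAT7. The 3 shCTRL libraries came from cells of the same line that received a control hairpin. Cells of both groups were exposed to polybrene at 10 µg/mL and, from 96 h on, to puromycin at 1 to 3 µg/mL, per the labels' protocols. The labels give neither the number of hairpins and clones nor whether replicates were separate cultures, so p-values measure only the spread between these libraries.

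Each origin is first bound by ORC, which recruits CDC6 and CDT1 to load the ring-shaped MCM2-7 helicase around DNA as an inactive double hexamer. Loading is confined to the part of the cell cycle before DNA synthesis, and geminin then blocks CDT1. At firing, the CDC7 kinase with its activator DBF4 phosphorylates MCM proteins, and CDC45 and GINS join MCM2-7 to form the active helicase. HBO1 is known as an acetyltransferase of histones H3 and H4 that binds ORC1, MCM2 and CDT1 and acts at licensing, which is the reason to look at the transcripts of these factors after its knockdown. Many of these genes are targets of E2F transcription factors and are transcribed mainly in cycling cells. In bulk RNA, fewer cycling cells and less RNA per cell cannot be told apart.

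Promoter sequence, which the list did not use, was examined because many of these genes are known E2F targets. Promoters from RefSeq (build GRCh38.p14), covering 250 bases before to 50 after a start, matched 29 of the 34 genes. An E2F site, searched on both strands as TTTCCCGC, TTTGGCGC, TTTCGCGC or TTTGCCGC, lay in at least 1 listed promoter of 17 of the 29 (58.6%), against 6.46% of the 11997 tested genes with a promoter. A CCAAT box, searched as CCAAT, lay in 18 (62.1%, against 42.8%). A GC box, GGGCGG, lay in 25 (86.2%, against 76.2%). The cell cycle homology region that marks many mitotic genes, searched as TTTGAA or TTCGAA, lay in 2 (6.90%, against 15.3%). A match of letters is a description and not a bound site. For 9 genes of licensing and of the helicase, the E2F match nearest the listed start is shown in capitals within 30 bases, since the position and flanks of the match differ from gene to gene.
MCM2, chr3:127598402-127598431, plus strand: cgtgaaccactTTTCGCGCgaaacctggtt
MCM3, chr6:52284728-52284757, minus strand: agttcggaagtTTTCGCGCcggggtggagt
MCM6, chr2:135876511-135876540, minus strand: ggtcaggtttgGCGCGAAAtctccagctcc
MCM7, chr7:100101388-100101417, minus strand: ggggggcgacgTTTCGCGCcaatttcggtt
CDC6, chr17:40287875-40287904, plus strand: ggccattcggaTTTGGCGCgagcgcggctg
CDT1, chr16:88803743-88803772, plus strand: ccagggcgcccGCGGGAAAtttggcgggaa
GINS1, chr20:25407667-25407696, plus strand: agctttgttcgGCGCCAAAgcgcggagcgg
GINS2, chr16:85688967-85688996, minus strand: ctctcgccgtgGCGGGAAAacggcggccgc
GINS3, chr16:58392455-58392484, plus strand: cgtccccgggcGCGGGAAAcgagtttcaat
The upstream 200 bases of MCM6 and of TICRR are shown whole, as an example with E2F matches and an example without. MCM6 held 4 E2F matches, in 2 overlapping pairs that each share letters (capitals), and 2 CCAAT boxes. TICRR, which encodes the firing factor treslin, held 0 E2F matches and 4 CCAAT boxes in the bases shown. ORC5 and DBF4, also without an E2F match, held 0 CCAAT boxes, so TICRR does not stand for all such promoters. The levels of TICRR are described below with the differences between library numbers.
MCM6, chr2:135876444-135876643, minus strand: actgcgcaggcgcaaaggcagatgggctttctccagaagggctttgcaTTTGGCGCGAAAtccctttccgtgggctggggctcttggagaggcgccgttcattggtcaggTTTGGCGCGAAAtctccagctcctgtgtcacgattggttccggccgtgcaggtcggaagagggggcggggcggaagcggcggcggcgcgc
TICRR, chr15:89575269-89575468, plus strand: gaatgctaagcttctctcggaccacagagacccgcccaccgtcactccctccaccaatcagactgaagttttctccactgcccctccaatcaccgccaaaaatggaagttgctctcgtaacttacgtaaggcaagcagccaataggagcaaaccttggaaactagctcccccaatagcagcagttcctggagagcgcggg

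The recovered sequencing depth was 35940400 to 39908703 reads per library. KAT7 measured 1008, 872 and 784 normalized counts in the 3 shHBO1 libraries, against 3616, 3952 and 3554 in the 3 shCTRL libraries, where normalized counts are reads divided by the scaling of their library. The groups did not overlap, and the log2 fold change was −2.07 (SE 0.11, limma adjusted p = 0.00123). With 3 libraries against 3, the exact two-sided permutation test cannot go below p = 0.1, the value it gave. Of 10 epithelial and Mullerian markers, the keratins KRT7, KRT8, KRT18 and KRT19, EPCAM and PAX8 averaged at least 9712 counts in each group, while WT1 averaged 14.1 in shHBO1 and 13.4 in shCTRL. Of the other 3, WFDC2 averaged 1112 in shHBO1 and 1495 in shCTRL without overlap (log2 fold change −0.43), MSLN 1727 in shHBO1 and 2262 in shCTRL (−0.37), and MUC16 744 in shHBO1 and 972 in shCTRL (−0.39). None of the 10 passed in limma, whereas DESeq2 called WFDC2 lower (adjusted p = 0.0366). The 7 leukocyte markers summed to 673 to 782 counts in shHBO1 and 683 to 768 in shCTRL, mostly CD68 with a mean of 526 in shHBO1 and 496 in shCTRL; T cell CD3E had 0.623 in shHBO1 and 0 in shCTRL. CD14 had 18.6 in shHBO1 and 38.9 in shCTRL, without overlap, and did not pass. The 8 fibroblast and endothelial markers summed to 1490 to 1824 in shHBO1 and 1391 to 2152 in shCTRL, mostly COL1A1 (813 in shHBO1 and 688 in shCTRL, log2 fold change 0.27) and CDH5 (743 in shHBO1 and 1032 in shCTRL, −0.46), which did not pass, with DCN at 0. The part of these markers in the results below was not tested. The number 3 libraries of both groups lay apart from the others on the first principal component of all genes.

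The question for the origin genes was whether their transcript levels differed after HBO1 knockdown. None of the 34 passed an adjusted p of 0.05 in limma, edgeR or DESeq2 (0 higher, 0 lower), where 0.00658% of the 15187 tested genes passed in limma. At an unadjusted p under 0.05 there were 0 members in limma and 0 in edgeR and DESeq2. Of the 15187 tested genes, limma gave 3.54%, edgeR 3.63% and DESeq2 558 genes. With the replicate number as a block, limma gave 0 members at this level, beside 11.3% of all tested genes. The shHBO1 mean lay between 90.2% and 109% of the shCTRL mean for every member. The median log2 fold change was −0.019, with 11 estimates above 0 and 23 below, beside a median of 0.00016 over all tested genes, of which 50% lay below 0. All 34 of the 95% confidence intervals spanned 0. Their outermost bounds were −0.43 for ORC3 and 0.48 for CLSPN, which correspond to 0.741 and 1.40 times the shCTRL level. With the replicate number as a block the intervals were narrower, all 34 again spanned 0, and the outermost bounds were −0.31 for GINS1 and 0.41 for CLSPN.

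**Figure D1:**
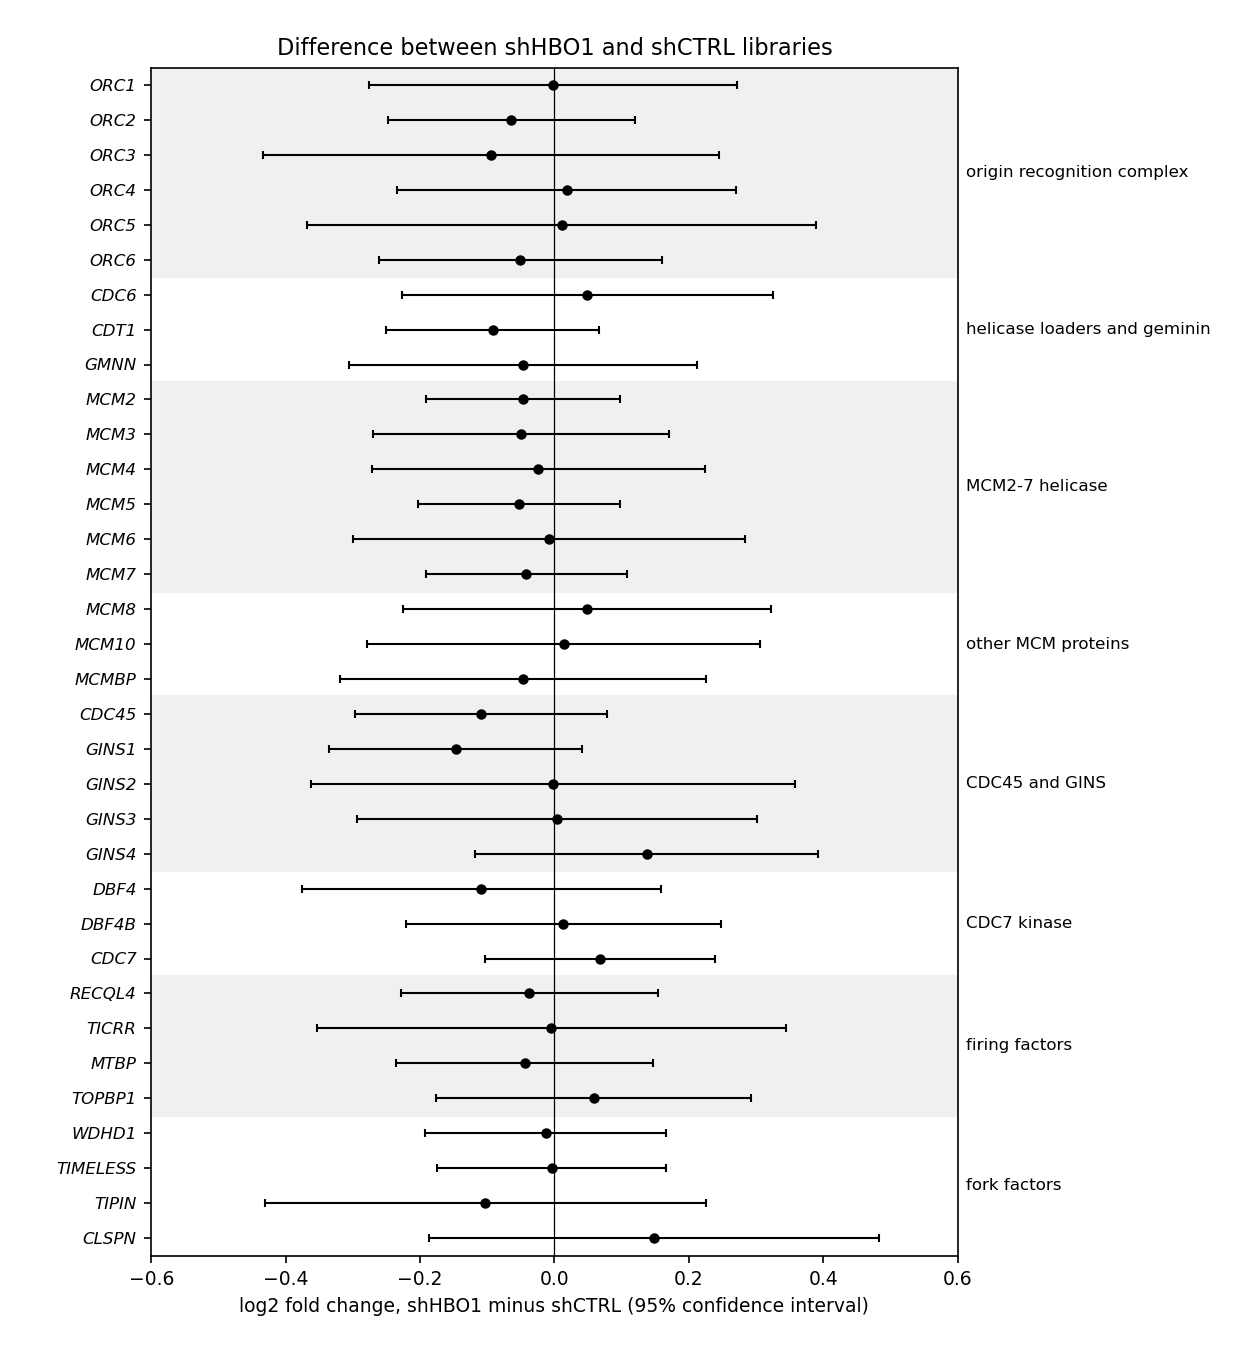
Log2 fold change of each of the 34 genes, shHBO1 minus shCTRL, on the log2(normalized count + 1) scale, grouped by role. Points are limma estimates without a replicate block and bars their 95% confidence intervals (n = 3 per group). Every interval crosses 0, and the outermost bounds are −0.43 and 0.48.

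The 6 ORC subunits form the complex that binds origin DNA, and ORC1 is the subunit that is degraded and remade in each cycle. Their log2 fold changes ran from −0.094 for ORC3 to 0.018 for ORC4. ORC2, a core subunit, had 1837, 1873 and 2047 counts in shHBO1, against 1946, 1970 and 2098 in shCTRL. The ranges overlapped, and the log2 fold change was −0.064 (SE 0.079). ORC1 averaged 1959 ± 158 in shHBO1 and 1970 ± 267 in shCTRL (SD, n = 3 each), a log2 fold change of −0.0020. ORC6 averaged 1473 ± 133 in shHBO1 and 1522 ± 49.4 in shCTRL. ORC1, ORC3 and ORC4 overlap other genes in the annotation, among them PRPF38A, AKIRIN2 and ACVR2A. Whether they share reads with these genes cannot be told from the deposited values.

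CDC6 and CDT1 load the helicase, and geminin, the product of GMNN, inhibits CDT1. CDT1 had 4516, 4585 and 5002 counts in shHBO1, against 4993, 5007 and 5016 in shCTRL. shHBO1 1 and 2 were below every shCTRL library and shHBO1 3 lay within the shCTRL range, which was narrow at ± 11.6 (SD). The log2 fold change of CDT1 was −0.092 (SE 0.068, interval −0.25 to 0.067). CDC6 averaged 3543 ± 257 in shHBO1 and 3446 ± 540 in shCTRL, and GMNN averaged 3270 ± 244 in shHBO1 and 3392 ± 462 in shCTRL. These differences were smaller than the SD of either group.

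The MCM2-7 subunits form the ring of the replicative helicase. All 6 estimates were slightly below 0, from −0.0075 for MCM6 to −0.053 for MCM5, and none passed; without shCTRL 3, the estimates of MCM3, MCM4 and MCM6 (0.13) were above 0. MCM5 had 5015, 4899 and 4981 counts in shHBO1, against 5000, 5063 and 5396 in shCTRL, so that shHBO1 1 lay above shCTRL 1. MCM2, the subunit that also binds histones and HBO1, averaged 7270 ± 63.3 in shHBO1 and 7510 ± 269 in shCTRL. MCM4 averaged 10870 ± 440 in shHBO1 and 11126 ± 1607 in shCTRL. The summed count of the 6 subunits ran from 58839 to 59300 in shHBO1 and from 57040 to 65663 in shCTRL, so the shHBO1 range lay inside the shCTRL range. A wider log2 range in shCTRL than in shHBO1 was seen in 67.6% of the 34 members, beside 64.2% of all tested genes. By this share, a narrower shHBO1 range was about as frequent in the members as in all genes. By size, the median log2 range of the members was 0.145 in shHBO1 and 0.326 in shCTRL. Over all tested genes it was 0.254 in shHBO1 and 0.341 in shCTRL. The ranges were not matched for expression level, and the difference was not tested.

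Within the numbered pairs of libraries, the MCM2-7 genes did not keep one sign. The comparison of shHBO1 with the shCTRL library of the same number gave 6 of 6 subunits above 0 for number 1, 1 of 6 for number 2 and 0 of 6 for number 3. The median log2 difference was 0.033, −0.015 and −0.16 for numbers 1, 2 and 3. MCM6 shows the pattern most widely among the 6, with 6912, 6712 and 7608 counts in shHBO1, against 6225, 6655 and 8654 in shCTRL; it was chosen after its values were seen. Its shHBO1 values lay inside the range of its shCTRL values. Over all 34 members, 70.6%, 44.1% and 20.6% were above 0 in pairs 1, 2 and 3, beside 51.3%, 50.2% and 47.8% of all tested genes. All 3 pairs had the same sign in 6 of the 34 members (17.6%; MCM8 and CDC7 higher, ORC2, CDT1, GINS1 and MTBP lower), beside 32.4% of all tested genes. With 1 library per group and number, whether the difference depends on the number could not be tested.

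**Figure D2:**
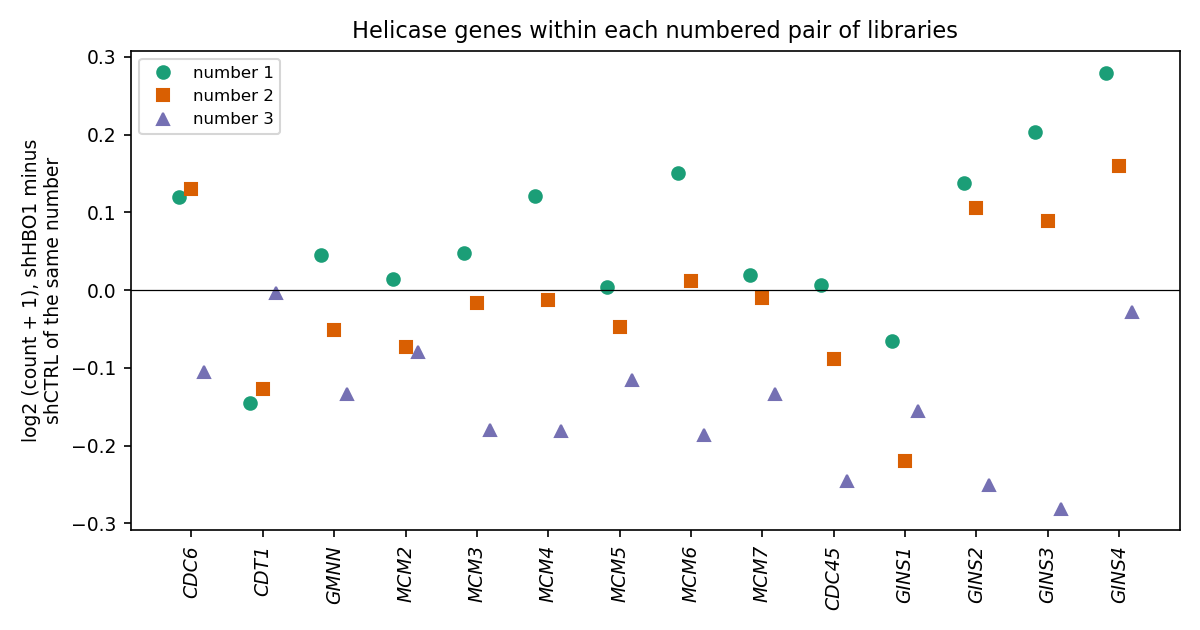
Log2 difference, shHBO1 minus the shCTRL library of the same replicate number, on the log2(normalized count + 1) scale, for the loaders, MCM2-7, CDC45 and GINS genes; each symbol is 1 pair of libraries. All 6 MCM2-7 genes are above 0 for number 1 and below 0 for number 3.

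Further MCM-named proteins have other tasks: MCM8 acts in homologous recombination, MCM10 helps to activate the loaded helicase, and MCMBP binds MCM proteins outside the hexamer. MCM8 had 1367, 1251 and 1537 counts in shHBO1, against 1268, 1230 and 1526 in shCTRL. The same-numbered libraries of the groups were close to each other, and the log2 fold change was 0.048 (SE 0.12). MCM10 averaged 3251 ± 151 in shHBO1 and 3252 ± 588 in shCTRL. MCMBP averaged 3272 ± 293 in shHBO1 and 3391 ± 479 in shCTRL.

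CDC45 and the 4 GINS subunits join MCM2-7 at firing. GINS1 was the only member of the 34 whose groups did not overlap, where 8.93% of all tested genes were separated in either direction. It had 1234, 1242 and 1254 counts in shHBO1, against 1292, 1447 and 1396 in shCTRL. Its level was 90.2% of control, with a log2 fold change of −0.15 (SE 0.081), and it did not pass (limma adjusted p = 1.00 without and 0.476 with the replicate number as a block). CDC45 averaged 2189 ± 25.0 in shHBO1 and 2366 ± 184 in shCTRL, a log2 fold change of −0.11. GINS4 averaged 1497 ± 44.1 in shHBO1 and 1370 ± 189 in shCTRL, a log2 fold change of 0.14, and neither passed. GINS2 had 2795, 2983 and 3265 counts in shHBO1, against 2539, 2772 and 3884 in shCTRL (chosen after its values were seen). The number 3 library was the highest of its group in both cases, and the shHBO1 values again lay inside the shCTRL range. GINS2 overlaps GSE1 in the annotation.

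CDC7 is the kinase that phosphorylates MCM proteins at firing, and DBF4 and DBF4B are its alternative activating subunits. DBF4 had 2095, 2243 and 2035 counts in shHBO1, against 2659, 2287 and 1972 in shCTRL. The shHBO1 values lay inside the shCTRL range, and the log2 fold change was −0.11 (SE 0.12). CDC7 averaged 2368 ± 78.5 in shHBO1 and 2260 ± 105 in shCTRL. The log2 differences within the numbered pairs were 0.036, 0.10 and 0.065, and the gene did not pass (adjusted p = 1.00 without and 0.704 with the replicate number as a block, limma). DBF4B averaged 1405 ± 126 in shHBO1 and 1392 ± 109 in shCTRL.

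Treslin (TICRR), MTBP, TOPBP1 and RECQL4 bring CDC45 and GINS to the helicase. TOPBP1 had 4822, 5066 and 5299 counts in shHBO1, against 4287, 4828 and 5541 in shCTRL. The shHBO1 values lay inside the shCTRL range, and the log2 fold change was 0.058 (SE 0.10). RECQL4 averaged 4049 ± 358 in shHBO1 and 4147 ± 142 in shCTRL. MTBP, the partner of treslin, averaged 977 ± 31.0 in shHBO1 and 1007 ± 29.4 in shCTRL.

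Fork proteins complete the list: WDHD1 links the helicase to DNA polymerase alpha, and TIMELESS, TIPIN and claspin (CLSPN) protect the fork and relay checkpoint signals. CLSPN had 1761, 1785 and 1724 counts in shHBO1, against 1488, 1335 and 2005 in shCTRL. The shHBO1 libraries were nearly equal, whereas shCTRL 3 stood above and shCTRL 1 and 2 below all of them. Its log2 fold change was 0.15 (SE 0.14, interval −0.19 to 0.48). TIPIN averaged 972 ± 87.6 in shHBO1 and 1051 ± 190 in shCTRL. TIMELESS averaged 4390 ± 239 in shHBO1 and 4400 ± 189 in shCTRL, and WDHD1 averaged 1526 ± 77.1 in shHBO1 and 1538 ± 14.0 in shCTRL.

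**Figure D3:**
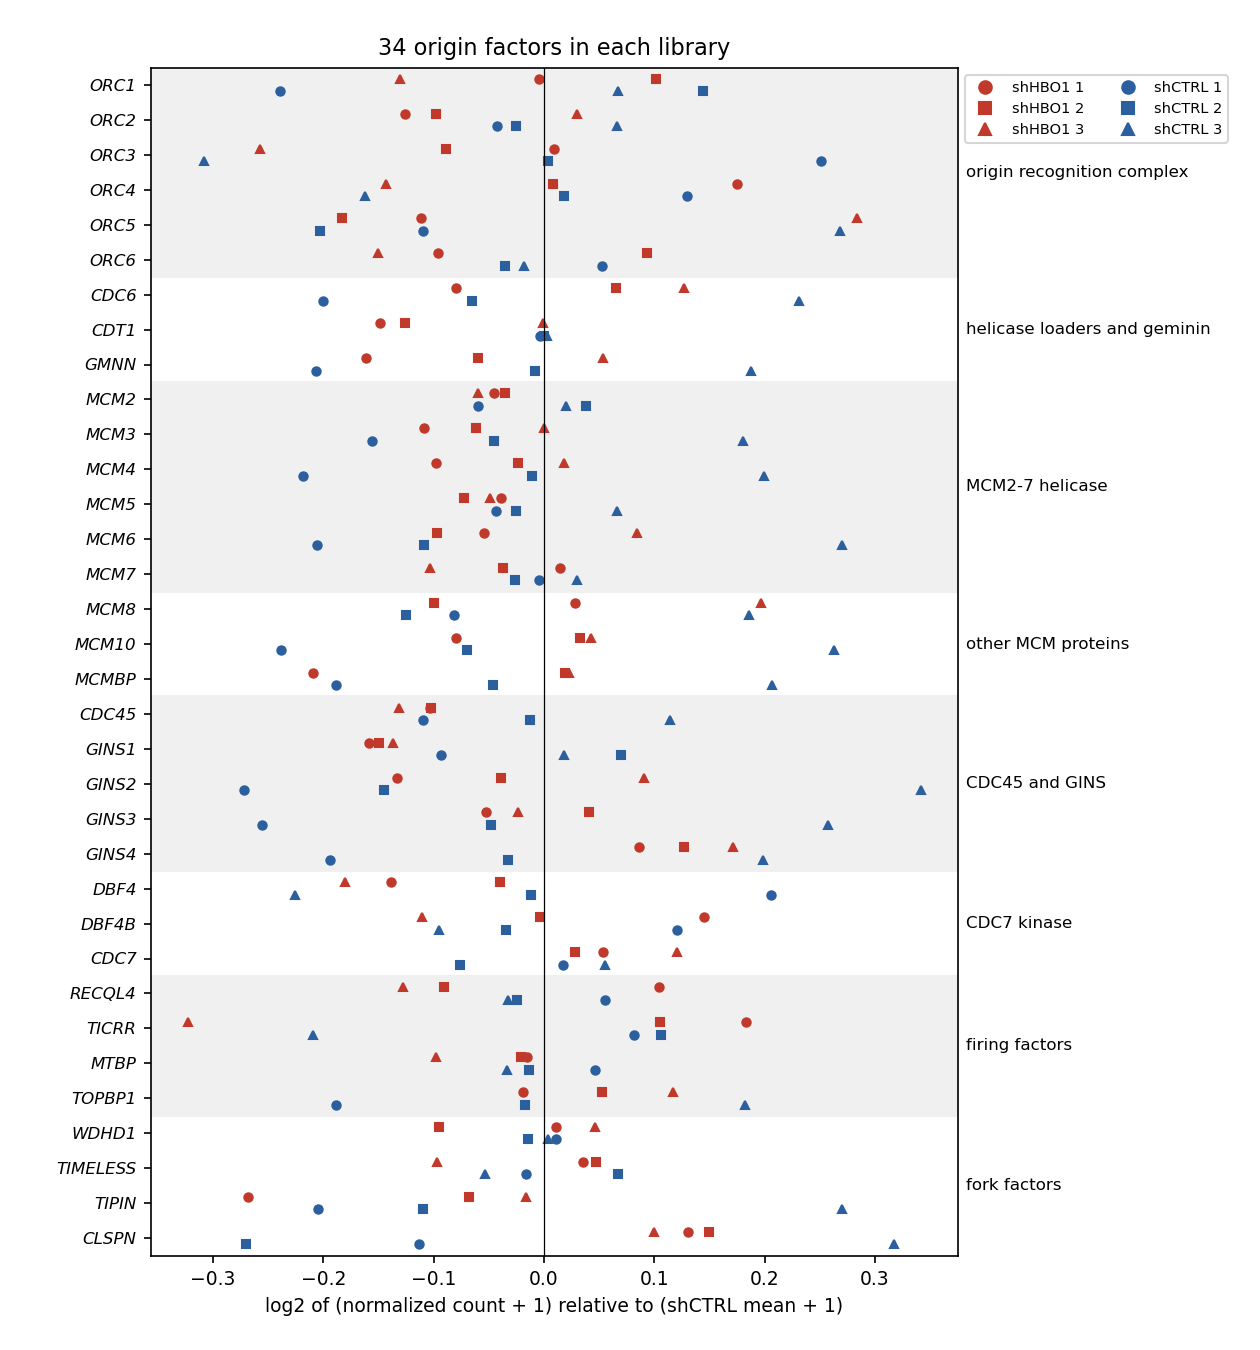
Log2 of each library's normalized count (+ 1) relative to the shCTRL mean (+ 1) for each of the 34 genes, grouped by role; red symbols are shHBO1, blue symbols shCTRL, and the shape gives the replicate number. GINS1 is the only gene whose groups do not overlap, and shCTRL 3 stands at the upper end for many helicase genes.

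Levels were also compared between library numbers. In 16 of the 34 members (47.1%) library 3 was the highest of its group in shHBO1 and in shCTRL alike, and in 8 (23.5%) it was the lowest in both, beside 26.5% and 24.5% of all tested genes; these shares were not tested. By the moderated F test for a difference between replicate numbers, 2 members passed (5.88%), where 9.69% of all tested genes did; edgeR also gave 2, against 9.59%. The count moved to 5 with quantile normalization (11.8% of all tested genes), 4 with a mean of at least 50 (12.3%) and 0 with the most abundant transcript only (0.0869%). ORC5 had 1414, 1345 and 1860 counts in shHBO1, against 1416, 1327 and 1840 in shCTRL. The number 3 libraries were the highest, by 0.39 on the log2 scale over number 1 (limma adjusted p = 0.0179 between numbers), and same-numbered libraries of the groups nearly coincided. TICRR, which overlaps KIF7 (mean 167 counts) in the annotation, had 2135, 2022 and 1503 counts in shHBO1, against 1991, 2025 and 1627 in shCTRL. Here number 3 was the lowest, by −0.40 on the log2 scale (adjusted p = 0.0338). ORC3 followed with 1858, 1735 and 1544 counts in shHBO1, against 2196, 1851 and 1490 in shCTRL, and did not pass (adjusted p = 0.0543); it was chosen after its values were seen. The labels do not say what a shared number stands for.

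When both number 3 libraries were left out, limma without a block called 0 members, and with the replicate number as a block it called 2, CLSPN (0.33 on the log2 scale, adjusted p = 0.00198) and GINS4 (0.22, adjusted p = 0.0363), both higher. That fit has 1 residual degree of freedom and called 15.2% of all tested genes in either direction and 7.74% as higher, so the members' share of 2 in 34 is not above the background. In pair 3 CLSPN had −0.22 and GINS4 −0.028. The 2 genes did not pass in any fit that kept all 6 libraries.

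Levels between genes were compared per kilobase, with transcript lengths from GENCODE 29 for 78 of the 80 deposited transcripts of these genes. Transcripts of a gene often carried 1 shared length, such as 3157 bases for all 3 of ORC1. TIMELESS had a length for 1 of its 3 transcripts, which was used for the others too. The levels per kilobase are therefore approximate. MCM7 was the most abundant in both groups, at 7527 ± 307 counts per kilobase in shHBO1 and 7744 ± 155 in shCTRL. This was 3.75 times the mean of MCM2 to MCM6 in shHBO1 and 3.75 times in shCTRL. The other 5 helicase subunits lay within 1.88-fold of each other in shHBO1 and 1.85-fold in shCTRL. Of these, MCM4 was the highest at 2640 ± 108 in shHBO1 and 2703 ± 390 in shCTRL, and MCM5 the lowest at 1405 ± 16.9 in shHBO1 and 1458 ± 60.1 in shCTRL. MCM3, MCM2 and MCM6, in this order of means, overlapped within their SDs in shCTRL. The MCM7 gene also hosts a microRNA cluster in an intron and overlaps AP4M1, which averaged 550 counts.

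GMNN followed, at 2730 ± 217 counts per kilobase in shHBO1 and 2854 ± 377 in shCTRL, which overlapped MCM4. Next came the loaders, with CDT1 at 1451 ± 81.0 in shHBO1 and 1545 ± 3.57 in shCTRL, and CDC6 at 1256 ± 91.1 in shHBO1 and 1222 ± 191 in shCTRL. Among the ORC subunits, ORC6 was the highest at 905 ± 82.0 in shHBO1 and 935 ± 30.4 in shCTRL, and ORC2 the lowest at 445 ± 26.0 in shHBO1 and 465 ± 19.0 in shCTRL. The lowest levels of the list belonged to WDHD1, at 277 ± 23.2 in shHBO1 and 287 ± 10.6 in shCTRL, and TICRR, at 280 ± 49.8 in shHBO1 and 280 ± 33.1 in shCTRL, which overlapped. The highest member stood 27.2-fold above the lowest in shHBO1 and 27.7-fold in shCTRL. In both groups each MCM2-7 subunit except MCM5 had a higher mean than any factor that recruits or fires the ring. The mean of MCM5 was below that of CDT1 in both groups, but in shHBO1 they overlapped within their SDs. GMNN, which encodes an inhibitor of loading, had a higher mean than all but MCM7 in both groups.

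**Figure D4:**
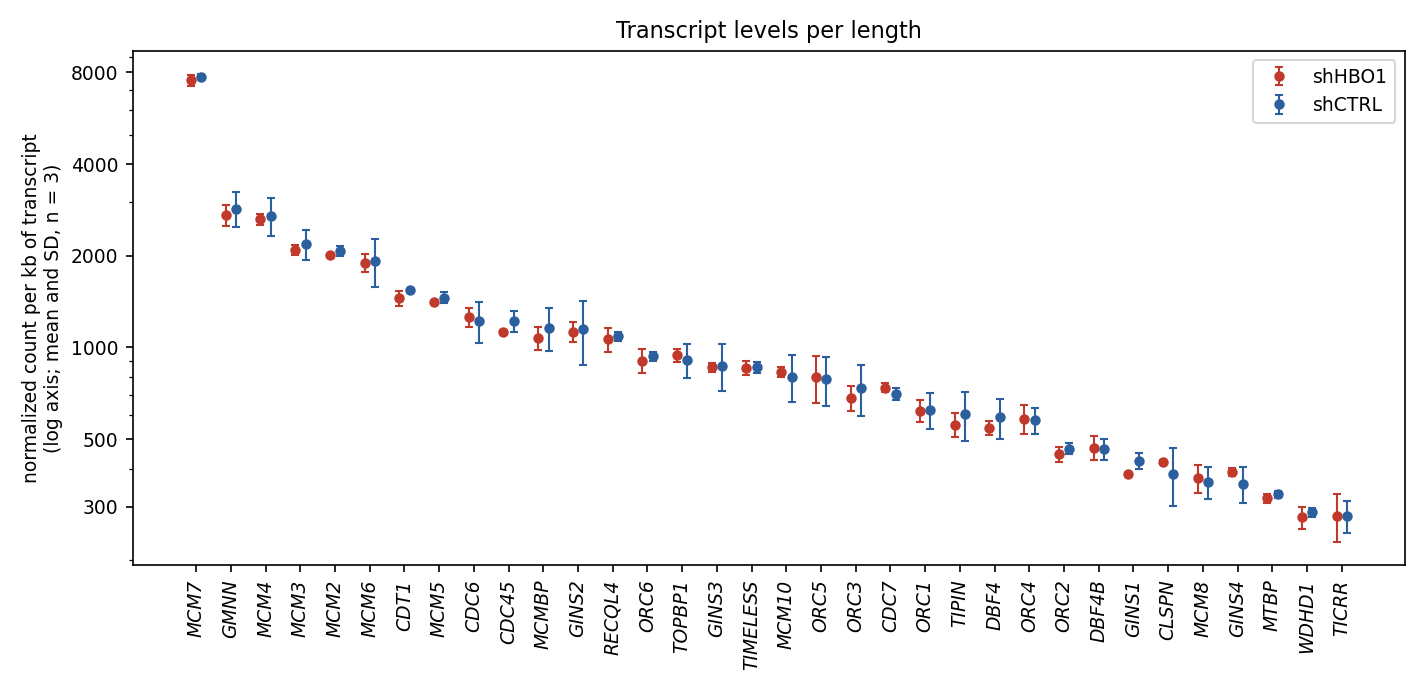
Normalized count per kilobase of transcript for the 34 genes in order of the shCTRL mean, on a log axis; points are group means and bars SD (n = 3 per group), with shHBO1 in red left of shCTRL in blue. MCM7 stands above all others at 7527 in shHBO1 and 7744 in shCTRL.

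Of the 34 genes, 25 had several deposited transcripts, and 79 of the 80 transcripts passed the filter. None of the 79 passed when each transcript was tested by itself in limma, without or with a block, where 0.00297% and 0% of 33636 transcripts passed. At an unadjusted p under 0.05 there were 3 of 79 (3.76% of all transcripts), which are named here after their values were seen. Of MCM8 reads, NM_001281520 held 65.4 ± 9.64% in shHBO1 and 41.1 ± 8.87% in shCTRL, and NM_032485 held 16.9 ± 10.6% in shHBO1 and 35.7 ± 6.05% in shCTRL (SD, n = 3). The MCM10 transcript NM_182751 held 37.3 ± 3.49% of its gene in shHBO1 and 27.8 ± 4.86% in shCTRL. Their adjusted p-values were 1.00 in limma without a block and 0.843 with it. For DBF4B the non-coding NR_036623 held 83.2 ± 3.26% in shHBO1 and 84.0 ± 3.06% in shCTRL, so the sum for this gene describes mostly a transcript that is not annotated as coding. Such shares depend on how reads common to several transcripts were assigned, on which the labels say nothing.

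The rest of the replication pathway was examined with further lists. Of 21 other licensing and firing regulators, 0 passed in either direction, with a median log2 fold change of 0.020. The smallest p-values belonged to RIF1 (0.18), which restrains firing through a phosphatase, to the S phase kinase CDK2 (−0.083) and to MCM9 (0.12). Of 24 genes for replicative polymerases, clamp and lagging strand, 0 passed, with a median of −0.037. The epsilon polymerase subunit POLE2 averaged 667 ± 47.5 in shHBO1 and 804 ± 45.7 in shCTRL, without overlap, a log2 fold change of −0.27 (SE 0.10) that did not pass in limma (adjusted p = 1.00 without and 0.316 with the block). The clamp loader subunit RFC2 had −0.12 and POLE4 had 0.14.

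The E2F factors and pocket proteins that control these genes, 13 in all, included 0 that passed, and their median was 0.023 on the log2 scale. E2F2 had −0.17 without overlap of the groups, where 8.93% of all tested genes were separated in either direction. E2F3 had 0.16 and E2F7 had 0.15, both with overlap. Of 17 mitotic proliferation markers 0 passed, with a median of 0.015, BIRC5 at 0.18, MKI67 at 0.10 and CENPF at 0.11. In the HBO1 complexes KAT7 fell, and the other 9 subunits did not pass; BRPF3 had 0.23 and ING5 −0.16.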

How the data were processed

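For 58215 RefSeq transcripts in 6 libraries, the deposited values are a signal: reads scaled by library. The submitters' processing notes list Bowtie 1.2.1.1, SAMtools, DESeq2 and the build hg19; which step used which is not stated. Dividing each library by its smallest step returned whole reads (100% of values at a tolerance of 0.01 read). Accessions were named from RefSeq GRCh38.p14 (57191) or GENCODE 29 (671); 353 unnamed ones, with 0.0840 to 0.0901% of reads, were left out, and transcripts were summed per gene. Whether reads of overlapping or near-identical genes were kept apart cannot be told from the deposited values.

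Genes with a mean of at least 10 (15187) were tested with limma-trend 3.58.1 (R 4.3.3) on log2(normalized count + 1), with Benjamini-Hochberg adjustment over all of them and a threshold of 0.05; log2 fold changes are shHBO1 minus shCTRL and understate changes of low genes. edgeR 4.0.16 quasi-likelihood and DESeq2 1.42.0 were run on recovered reads, and the scripts were tested on simulated data. Alternatives included a replicate block, other scalings, filters and pseudocounts, and each library left out. Same-numbered libraries deviated together from their group means (correlations 0.323, 0.197 and 0.477 for numbers 1, 2 and 3, all above 0.1). The numbers were used in the blocked fits, the tests between numbers and the differences within pairs, but not in the main fit. The stated SEs, intervals and p-values come from the main fit unless a block, a comparison of numbers or another test is named. For ORC5 the SE was 0.163 in the main fit and 0.0626 with the block. No day or batch is labelled. shCTRL 2 correlated slightly better with shHBO1 1 (0.203). Replicates differed by 12.3 to 67.3 chi-square per degree of freedom, well beyond sampling noise. Library values are given for the member with the smallest p of each role and for those called in the limma fit without a block, with it, or between numbers at the settings above, and other genes by the 3 smallest p-values per list. The members and lists were chosen with earlier results of these data known.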

Additional observations from a re-analysis of the deposited data

How the results depend on the processing

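Without a replicate block 0 members and 1 gene, KAT7, passed in limma under every alternative scaling, pseudocount, filter and choice of transcript and in edgeR. With each library left out in turn, 1 gene and 0 members passed, KAT7 had −2.16 to −1.98, and the members' median log2 fold change ran from −0.048 to 0.013. With the replicate block 19 genes passed in limma and 19 in edgeR, and 0 members in both; DESeq2 without the block called 19 genes, 0 members and 2 genes of the further lists (KAT7 and WFDC2). Without replicate 3 of both groups, an alternative chosen after seeing the data, the blocked fit called 2309 genes, 2 members (CLSPN and GINS4) and 19 genes of the further lists; the unblocked fit called 1 gene and 0 members. The cause was not tested. The blocked fit of 2 pairs has 1 residual degree of freedom. Members that differed between replicate numbers were 5 with quantile normalization (11.8% of all genes), 4 with a mean of at least 50 (12.3%) and 0 with the most abundant transcript only (0.0869%, 13 genes), against 2; the cause was not tested. The sign of an estimate changed for 0 to 10 of the 34 members across alternatives, so a direction near 0 should not be read.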

Other observations

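The place of the number 3 libraries was also counted for mitotic genes, and the difference from the origin genes was not tested. Of 17 mitotic proliferation markers, 12 were lowest in library 3 in both groups and 1 was highest in both, beside 8 and 16 of the 34 origin genes. Between replicate numbers 6 mitotic markers passed in limma (9.69% of all tested genes did), among them CENPF (−0.43 on the log2 scale for number 3 minus number 1, adjusted p = 0.0132), which encodes a kinetochore protein, and the cyclin CCNB1 (−0.19, adjusted p = 0.0338). Of the 21 other licensing and firing regulators 3 passed, and all 3 were higher in number 3: the cyclin CCNE2 (0.51, adjusted p = 0.0122), the clamp loader subunit DSCC1 (0.47) and the ORC-associated LRWD1 (0.41). The genes named here were picked with these values in view.

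The difference between numbers was set beside the promoter letters, a split made with the number 3 values in view and not tested. Over all tested genes the median for number 3 minus number 1 was 0.0031, and 50.5% were above 0. The 17 origin genes with a listed E2F site had a median of 0.22 for number 3 minus number 1, and 15 of them were above 0. The 12 with none had a median of −0.024, and 6 of them were above 0. Their ranges overlapped, from −0.41 to 0.42 and from −0.40 to 0.39. For shHBO1 minus shCTRL the medians were −0.042 with a site and −0.0043 without.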
